A study of Mus musculus with 10 samples.

Results

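Skeletal muscle fibre genes were read out in interscapular brown adipose tissue (iBAT), a thermogenic fat depot that lies between the shoulder blades over the muscles of the back. The members are 40 genes picked by symbol for their textbook roles in the muscle fibre, out of 54347 gene records (30984 with a count in at least 1 mouse). Of them, 13 belong to fast (glycolytic, type II) fibres, 8 to slow (oxidative, type I) fibres and 19 are common to both. All 40 were in the table, so no member is missing.

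The series held 10 mice on the C57BL/6N background: 5 ΔGm15551 mice, in which a CRISPR/Cas9 deletion removed exon 1 of the lncRNA Gm15551, and 5 wild type mice. All were 12 weeks old and were kept alone at 4 °C for 24 h before dissection, on a chow diet, so every library comes from cold-exposed tissue and none from warm controls. The ΔGm15551 line was backcrossed to wild type mice, and each library is poly A RNA of whole iBAT from 1 mouse. Mice are named here by genotype and the replicate number of the labels: KO 1, KO 2, KO 4, KO 5 and KO 7 for ΔGm15551 and WT 2, WT 3, WT 5, WT 6 and WT 7 for wild type. Wherever values of all mice follow one another, they are in this order. Depth ran from 9680976 to 15771170 counts per mouse. Gm15551 had 0 counts in all 5 ΔGm15551 mice and 1, 2, 6, 7 and 0 counts in the wild type mice, so at this depth it was not detected in WT 7 either. The 10 brown adipocyte genes used as a check of the tissue summed to 25508 to 29524 CPM (counts scaled to a library total of 1000000) in ΔGm15551 and to 24349 to 28656 CPM in wild type mice. Fabp4 and Ucp1 made up most of this sum, which hides the other genes. In WT 7, Dio2, Pparg, Adipoq and Ppargc1a were the lowest of all mice (306, 124, 286 and 94.5 CPM) and Fabp4 the highest (14581 CPM). Ucp1, Cidea, Elovl3, Cox8b and Cox7a1 were neither lowest nor highest there.

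A muscle fibre contracts when myosin heavy chains, carried in the thick filament with their light chains, pull on actin filaments whose access is gated by the calcium-sensing troponin complex. Mammals encode most of these parts more than once, and a fibre's speed goes with the set it uses: Myh4, Myh1 and Myh2 are the heavy chains of the fast fibre types IIB, IIX and IIA, and Myh7 is that of slow fibres. Brown adipocytes and skeletal muscle share an origin in Myf5-expressing precursors. In bulk RNA, fewer cells of a type and less RNA per cell cannot be told apart.

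Promoters of 4 members are shown because they stand for the contrasts that follow: the fast heavy chains Myh4 and Myh2, the slow heavy chain Myh7 and the skeletal actin Acta1. Each is the RefSeq window (GRCm38.p6) from 250 bases before to 50 bases after an annotated start (the first listed where a gene has several, and for Myh4 upstream of the GENCODE start), read 5′ to 3′ on the gene's strand. Capitals mark matches, on either strand, to the E-box (CANNTG, bound by MyoD-type factors), the MEF2 site, the CArG box (bound by serum response factor) and the TATA box (TATAAA). One of the 3 TATA box matches in Myh4 lies inside its MEF2 site.
Myh4 (chr11:67237562-67237861, plus strand): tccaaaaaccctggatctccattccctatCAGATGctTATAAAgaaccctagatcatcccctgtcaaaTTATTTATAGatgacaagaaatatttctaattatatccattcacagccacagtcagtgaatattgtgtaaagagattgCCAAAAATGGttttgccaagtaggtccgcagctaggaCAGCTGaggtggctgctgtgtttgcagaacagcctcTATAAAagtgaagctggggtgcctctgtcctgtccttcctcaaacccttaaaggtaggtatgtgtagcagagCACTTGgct
Myh2 (chr11:67170777-67171076, plus strand): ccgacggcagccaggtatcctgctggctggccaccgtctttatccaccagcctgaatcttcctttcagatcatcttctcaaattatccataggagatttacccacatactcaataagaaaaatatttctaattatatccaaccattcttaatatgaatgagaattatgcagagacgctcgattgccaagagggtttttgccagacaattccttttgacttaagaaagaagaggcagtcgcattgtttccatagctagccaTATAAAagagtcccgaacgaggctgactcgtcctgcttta
Myh7 (chr14:54994577-54994876, minus strand): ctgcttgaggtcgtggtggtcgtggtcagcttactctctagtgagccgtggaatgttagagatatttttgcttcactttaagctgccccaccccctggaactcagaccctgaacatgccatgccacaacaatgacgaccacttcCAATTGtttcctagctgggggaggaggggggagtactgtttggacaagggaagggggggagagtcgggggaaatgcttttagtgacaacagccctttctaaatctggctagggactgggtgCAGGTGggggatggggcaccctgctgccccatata
Acta1 (chr8:123894726-123895025, minus strand): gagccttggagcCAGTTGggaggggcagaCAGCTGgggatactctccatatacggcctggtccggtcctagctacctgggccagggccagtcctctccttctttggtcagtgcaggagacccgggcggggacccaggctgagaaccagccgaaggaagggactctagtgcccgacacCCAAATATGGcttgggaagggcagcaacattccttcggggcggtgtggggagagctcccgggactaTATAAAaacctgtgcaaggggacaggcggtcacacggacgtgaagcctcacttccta
The Myh4 window held 3 E-boxes, 1 MEF2 site and 1 CArG box, the Acta1 window 2 E-boxes and 1 CArG box, the Myh7 window 2 E-boxes and the Myh2 window a TATA box alone. Over the 40 windows found for 33 members, 17.5% held a MEF2 site against 3.19% of all 32851 windows, and 15% held a CArG box against 1.63%. E-boxes were in 82.5% of member windows and 72.3% of all windows, and TATA boxes in 20% and 13.6%. These are matches of letters and were not tested as sites.

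Muscle fibre transcripts were a trace of the iBAT RNA in every mouse, and that trace varied widely between mice. Of all counts, the members took 0.138, 0.0113, 0.312, 0.0282 and 0.0194% in ΔGm15551 and 0.0266, 0.0124, 0.0559, 0.0121 and 0.481% in wild type mice. WT 7 and KO 4 held the most, KO 1 came next, and KO 2, KO 7, WT 3 and WT 6 held the least, from 0.0113% to 0.0194%. The mean was 0.102% ± 0.129 (SD, n = 5) in ΔGm15551 and 0.118% ± 0.204 (SD, n = 5) in wild type mice, so in both genotypes the SD was larger than the mean. The genotypes overlapped over most of their range.

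Nearly all members followed the same order of mice. WT 7 was highest for 37 of the 40 and KO 4 for the other 3, which were Myh2, Myh7 and Neb. KO 1, KO 4 and WT 7 were the 3 highest mice for 32 of the 40. At the low end, 18 members were at 0 in at least 1 mouse, and the number of members at 0 was 0, 10, 0, 2 and 11 in ΔGm15551 and 2, 14, 0, 10 and 0 in wild type mice. Only 9 members reached 10 counts in every mouse: Myl1 among the fast genes, no slow gene, and Actn2, Des, Eno3, Ldb3, Myom1, Neb, Pygm and Smyd1 among the common ones.

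**Figure D1:**
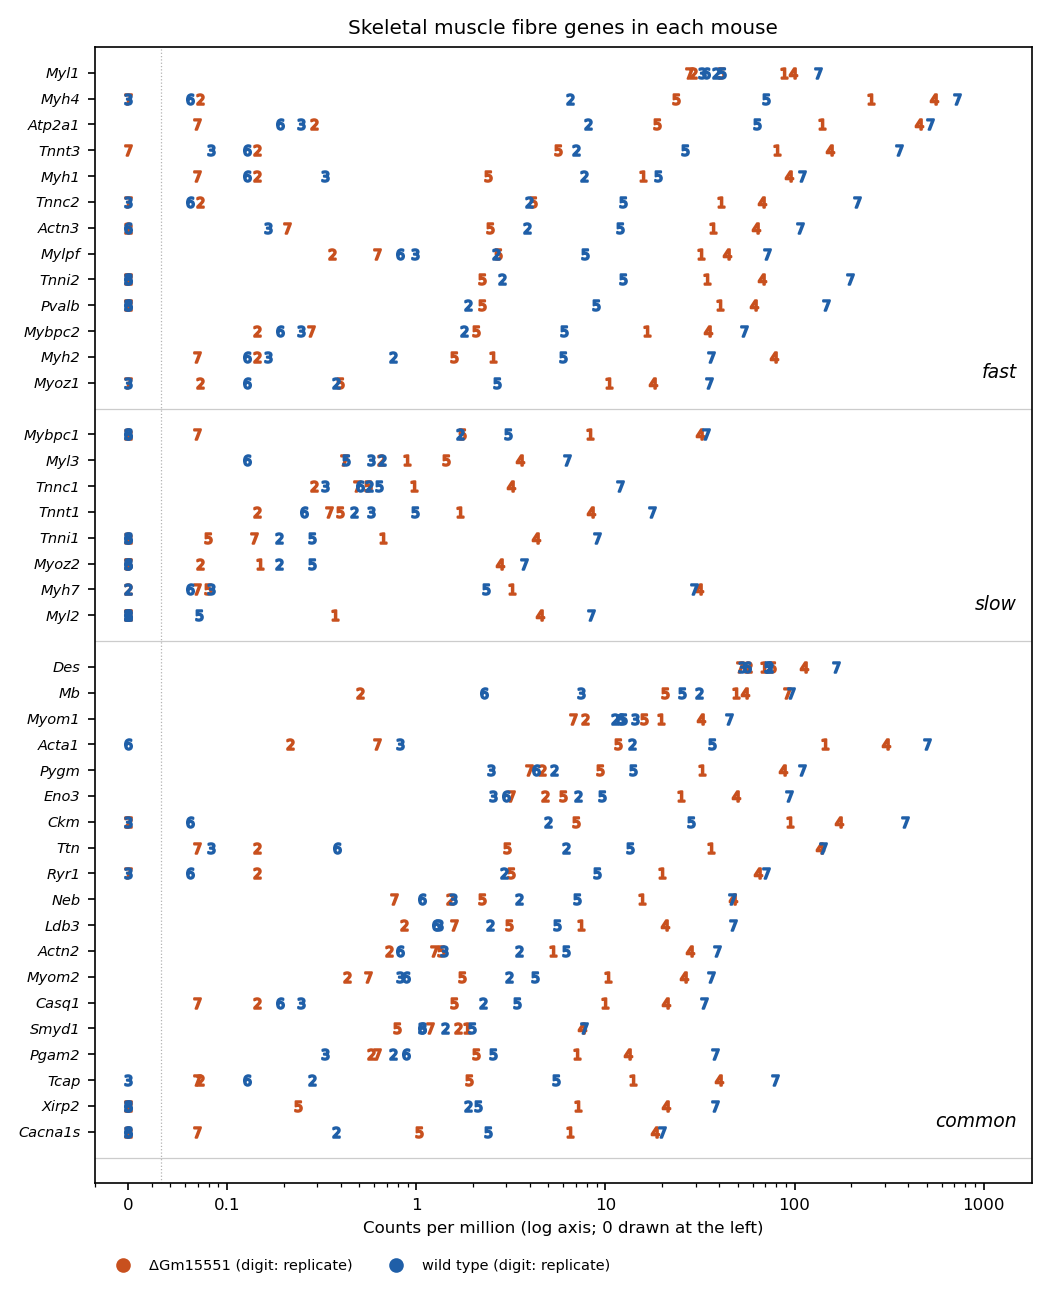
CPM (log axis, 0 drawn at the left edge) of the 40 members, with 1 digit per mouse giving its replicate number, ΔGm15551 in orange and wild type in blue. Most rows start at or near 0 and end with WT 7 and KO 4 at the right end, while Des and Myl1 stay within a few-fold.

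**Figure D2:**
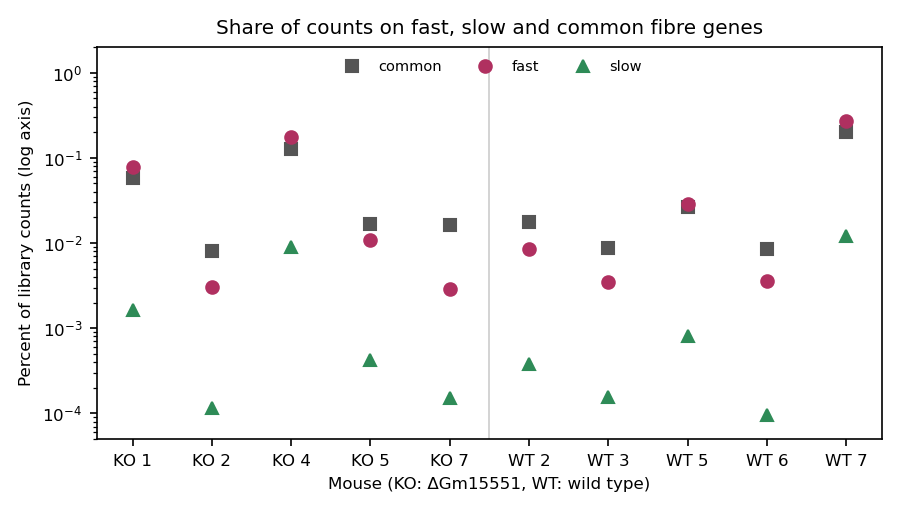
Percent of each library's counts (log axis) on the 13 fast, 8 slow and 19 common members, per mouse. The fast share ran from 0.00289% in KO 7 to 0.270% in WT 7, and the slow share stayed below it in all 10 mice.

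The fast heavy chains swung between a high level and a few counts or none. Myh4, the type IIB heavy chain, was at 252, 0.0720, 544, 23.7 and 0 CPM in ΔGm15551 and 6.50, 0, 70.3, 0.0634 and 722 CPM in wild type mice. Its highest mouse, WT 7, was at least 2924-fold above a floor of 3 counts in the lowest library. Both genotypes spanned nearly the whole range, with KO 7 and WT 3 at 0. Myh1, the type IIX heavy chain, was at 15.7, 0.144, 93.6, 2.38 and 0.0693 CPM in ΔGm15551 and 7.72, 0.329, 18.9, 0.127 and 109 CPM in wild type mice. Myh2, the type IIA heavy chain, was at 2.53, 0.144, 77.9, 1.59 and 0.0693 CPM in ΔGm15551 and 0.753, 0.165, 5.93, 0.127 and 36.3 CPM in wild type mice, and it is the one fast gene with KO 4 above WT 7. These 3 genes lie side by side on chromosome 11 (Myh2 at 67171027 to 67197517, Myh1 at 67200052 to 67224575, Myh4 at 67238029 to 67260446, GRCm38), and 42.9% of the 31-base words in Myh1 transcripts, 34.5% in Myh2 and 30.4% in Myh4 also occur in another gene. How reads were divided among them is therefore an estimate.

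Fast thin-filament genes moved with Myh4. Tnnt3, the fast troponin T that ties the complex to tropomyosin, was at 80.8, 0.144, 153, 5.64 and 0 CPM in ΔGm15551 and 6.97, 0.0823, 26.2, 0.127 and 357 CPM in wild type mice. Tnni2, the inhibitory subunit, was at 34.6, 0, 67.3, 2.22 and 0 CPM in ΔGm15551 and 2.82, 0, 12.4, 0 and 195 CPM in wild type mice. Neither shares a 31-base word with another gene, so their levels do not rest on the division of reads, and both had KO 7 at 0 and WT 7 highest. Tnnc2, the calcium-binding subunit, was at 40.6, 0.0720, 67.6, 4.13 and 0 CPM in ΔGm15551 and 3.95, 0, 12.4, 0.0634 and 214 CPM in wild type mice, with 59.0% of its words shared, all of them with its neighbour Ube2c.

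Fast light chains differed from one another. Mylpf, the regulatory light chain, was at 32.2, 0.360, 44.0, 2.70 and 0.623 CPM in ΔGm15551 and 2.64, 0.988, 7.77, 0.824 and 71.9 CPM in wild type mice, a 200-fold range, and it was counted in every mouse. Myl1, the essential light chain, was at 87.6, 29.2, 98.6, 40.8 and 27.6 CPM in ΔGm15551 and 38.3, 32.4, 41.2, 34.2 and 133 CPM in wild type mice. Its lowest mouse stood at 27.6 CPM, where Myh4 and Tnnt3 were both at 0, and its highest was only 4.83-fold above that. Myl1 shares 14.5% of its 31-base words, all with the pseudogene Mylf-ps, which had 0 to 5 counts per mouse.

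Other fast members covered calcium handling and the Z-disc. Atp2a1 (SERCA1), the pump that returns calcium to the sarcoplasmic reticulum, was at 140, 0.288, 457, 18.7 and 0.0693 CPM in ΔGm15551 and 8.10, 0.247, 63.3, 0.190 and 520 CPM in wild type mice. Pvalb, the calcium buffer parvalbumin, was at 40.5, 0, 61.0, 2.22 and 0 CPM in ΔGm15551 and 1.88, 0, 8.90, 0 and 146 CPM in wild type mice, and it was at 0 in the same 4 mice as Tnni2. Myoz1, a Z-disc protein that binds calcineurin, was at 10.4, 0.0720, 17.9, 0.397 and 0 CPM in ΔGm15551 and 0.377, 0, 2.68, 0.127 and 35.4 CPM in wild type mice. Mybpc2, the fast myosin-binding protein C, was at 16.6, 0.144, 34.9, 2.06 and 0.277 CPM in ΔGm15551 and 1.79, 0.247, 6.08, 0.190 and 54.0 CPM in wild type mice. For all 4, the 3 highest mice were WT 7, KO 4 and KO 1, and each genotype held both high and near-zero mice. Actn3, the fast Z-disc actinin, ran from 0 in KO 2 and WT 6 to 107 CPM in WT 7.

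Slow members were scarce, and counts are given for them in place of CPM. Myh7, the slow heavy chain, had 43, 0, 414, 1 and 1 counts in ΔGm15551 and 0, 1, 33, 1 and 284 counts in wild type mice. Myl2, the slow regulatory light chain, had 5, 0, 60, 0 and 0 counts in ΔGm15551 and 0, 0, 1, 0 and 81 counts in wild type mice. Both were near 0 except in KO 4, WT 7 and, for Myh7, KO 1 and WT 5. Myl3, the slow essential light chain, had 12, 9, 47, 18 and 6 counts in ΔGm15551 and 7, 7, 6, 2 and 61 counts in wild type mice and was found in all mice, as was Tnnt1, the slow troponin T, with 23, 2, 112, 5 and 5 counts in ΔGm15551 and 5, 7, 14, 4 and 170 counts in wild type mice. Tnnc1, the troponin C of slow and cardiac muscle, had 13, 4, 42, 7 and 7 counts in ΔGm15551 and 6, 4, 9, 8 and 116 counts in wild type mice. Heart muscle also uses Myh7, Myl2, Myl3 and Tnnc1. The 6 heart genes looked at summed to at most 4.34 CPM, with Myl4 the largest part (3.93 CPM) in that mouse, WT 7, and the atrial light chain Myl7 at 0 in all 10 mice; their part in the slow genes was not tested. Tnni1, the slow troponin I, had 9, 0, 57, 1 and 2 counts in ΔGm15551 and 2, 0, 4, 0 and 87 counts in wild type mice. Myoz2, the slow partner of Myoz1, had 2, 1, 37, 0 and 0 counts in ΔGm15551 and 2, 0, 4, 0 and 36 counts in wild type mice. Mybpc1, the slow myosin-binding protein C, had 111, 0, 423, 22 and 1 counts in ΔGm15551 and 18, 0, 43, 0 and 328 counts in wild type mice. KO 4 and WT 7 were the 2 highest mice for all 8 slow genes.

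Among the common members, Acta1, the actin of adult skeletal thin filaments, was at 144, 0.216, 304, 11.6 and 0.623 CPM in ΔGm15551 and 13.8, 0.823, 36.7, 0 and 503 CPM in wild type mice. Ckm, the muscle creatine kinase that regenerates ATP, was at 94.3, 0, 172, 6.99 and 0 CPM in ΔGm15551 and 4.99, 0, 28.4, 0.0634 and 384 CPM in wild type mice. WT 7 was at least 2644-fold above the floor of 3 counts for Acta1 and at least 1553-fold for Ckm. Of the glycolytic and glycogen genes, Eno3, the muscle enolase, was at 25.1, 4.82, 49.0, 5.96 and 3.19 CPM in ΔGm15551 and 7.16, 2.55, 9.61, 2.98 and 93.2 CPM in wild type mice, and Pygm, the muscle glycogen phosphorylase, at 32.5, 4.61, 87.3, 9.37 and 3.95 CPM in ΔGm15551 and 5.37, 2.47, 14.1, 4.31 and 110 CPM in wild type mice. Eno3 and Pygm did not fall below 2.55 and 2.47 CPM, while Pgam2, the muscle phosphoglycerate mutase, ran from 0.329 CPM (4 counts) in WT 3 to 38.1 CPM in WT 7. The Z-disc genes Actn2 and Ldb3 were counted in every mouse. Actn2, an actinin that crosslinks actin, was at 5.29, 0.720, 28.0, 1.35 and 1.25 CPM in ΔGm15551 and 3.48, 1.40, 6.22, 0.824 and 38.8 CPM in wild type mice. Ldb3, which binds actinin, was at 7.45, 0.864, 20.6, 3.10 and 1.59 CPM in ΔGm15551 and 2.45, 1.32, 5.58, 1.27 and 47.2 CPM in wild type mice. Their ranges of 54.0-fold and 54.7-fold were far below that of Acta1. Neb, the thin-filament ruler nebulin, was at 15.7, 1.51, 47.4, 2.22 and 0.762 CPM in ΔGm15551 and 3.48, 1.56, 7.07, 1.08 and 46.6 CPM in wild type mice. Smyd1, a lysine methyltransferase of striated muscle, was at 1.86, 1.66, 7.51, 0.794 and 1.18 CPM in ΔGm15551 and 1.41, 1.07, 1.98, 1.08 and 7.75 CPM in wild type mice. Smyd1 thus had one of the smallest ranges, 9.76-fold, with all mice but KO 4 and WT 7 within 0.794 to 1.98 CPM.

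The least variable members, by the SD of log2 CPM over the mice, were Des, Myl1, Myom1 and Smyd1. Des, the intermediate filament desmin, which smooth muscle also makes, was at 69.0, 56.9, 112, 76.3 and 51.7 CPM in ΔGm15551 and 73.6, 53.0, 72.3, 55.9 and 166 CPM in wild type mice. Myom1, the M-band protein myomesin, was at 19.7, 7.77, 31.9, 16.0 and 6.72 CPM in ΔGm15551 and 11.2, 14.3, 12.4, 12.0 and 45.1 CPM in wild type mice. Des changed 3.22-fold and Myom1 6.72-fold from the lowest to the highest mouse. The 5 smooth muscle genes summed to 111 to 383 CPM in ΔGm15551 mice, highest in KO 5, and to 166 to 299 CPM in wild type mice, and their part in the level of Des was not tested.

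Mb, the oxygen-binding myoglobin, broke the shared order of mice, and it is singled out here after its values were seen. It was at 49.3, 0.504, 54.5, 20.7 and 91.4 CPM in ΔGm15551 and 31.4, 7.41, 25.4, 2.28 and 95.4 CPM in wild type mice. KO 7 held 91.4 CPM (1320 counts), nearly as much as WT 7, although Myh4, Ckm, Tnnt3 and Tnni2 were all at 0 in KO 7. KO 2, where those genes were also at or near 0, had 0.504 CPM. Of the 31-base words in Mb, 27.7% also occur in another gene, mostly the antisense gene Gm49540, which had 0 to 8 counts per mouse, and whether the counting used strand is not stated.

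In the libraries with few muscle counts, a handful of genes made up most of the total. The shares of Des, Myl1, Mb and Myom1 in the member counts summed to 16.3, 83.6, 9.51, 54.5 and 91.3% in ΔGm15551 and 58.2, 86.7, 27.1, 86.0 and 9.14% in wild type mice. They were most of the member counts in KO 2, KO 7, WT 3 and WT 6 and a minor part in KO 1, KO 4, WT 5 and WT 7. Per kilobase of exon, the scale on which genes can be ranked against each other, the highest members in WT 7 were Acta1 at 327, Tnnc2 at 267 and Tnnt3 at 226 CPM per kb, and in KO 4 Acta1 at 198, Atp2a1 at 131 and Tnnt3 at 96.9. In KO 2 the order was Des at 15.1, Myl1 at 14.1 and Eno3 at 2.77 CPM per kb.

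Fast transcripts exceeded slow ones in every mouse. Summed per kb of exon, the 13 fast genes were above the 8 slow genes by 70.5, 18.9, 28.0, 23.6 and 14.3-fold in ΔGm15551 and 23.9, 17.0, 46.4, 23.0 and 30.3-fold in wild type mice. KO 1 had the largest excess of fast RNA and KO 7 the smallest. As log2 ratios the means were 4.72 ± 0.88 (SD, n = 5) in ΔGm15551 and 4.73 ± 0.54 (SD, n = 5) in wild type mice, a difference of -0.01, far below the SD in either genotype. The excess in the mice with few muscle counts rested on Myl1: without it, a setting chosen after the data were seen, the ratio was 61.8, 1.21, 26.0, 13.6 and 0.993 in ΔGm15551 and 13.1, 1.51, 38.6, 1.75 and 28.8 in wild type mice. KO 2, KO 7, WT 3 and WT 6 then lay between 0.993 and 1.75, on 36 to 46 counts over the other 12 fast and the 8 slow genes.

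Pairs of fast and slow genes for the same part gave the slow share directly, with exact 95% binomial intervals that cover counting error alone, because no molecular identifiers mark PCR copies. For the heavy chains, Myh7 was 1.26% (0.910 to 1.69) of Myh4 plus Myh7 in KO 1, 5.40% (4.91 to 5.93) in KO 4, 3.21% (2.22 to 4.48) in WT 5 and 3.90% (3.47 to 4.37) in WT 7. In WT 2 it was 0 of 69 counts, which allows a share of up to 4.35% by the floor of 3 counts and 5.21% by the exact interval. KO 5 had 1 Myh7 count of 299, or 0.334% (0.00847 to 1.85). The interval of KO 1 lay below those of KO 4, WT 5 and WT 7 and overlapped that of KO 5, whose point value was lower still. A share of counts is not corrected for gene length, so it is compared between mice and not between genes. Slow light chains gave the same contrast: Myl2 was 1.14% (0.373 to 2.65) of its pair with Mylpf in KO 1 against 9.29% (7.16 to 11.8) in KO 4 and 10.4% (8.37 to 12.8) in WT 7. WT 5, at 0.901% (0.0228 to 4.92), was as low as KO 1 for this pair. The essential light chain pair, the only one well counted in all mice (400 counts or more), had Myl3 between 0.369% (0.0447 to 1.33) in WT 6 and 4.52% (3.48 to 5.77) in WT 7.

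In the troponin pairs, KO 1 was again below KO 4 and WT 7. Tnnt1 was 2.08% of the troponin T pair in KO 1, 5.19% in KO 4 and 4.68% in WT 7. Tnnc1 was 2.33%, 4.45% and 5.31% of its pair in these 3 mice, and Tnni1 1.90%, 5.98% and 4.40%. The intervals of KO 1 and KO 4 were apart for troponin T (1.32 to 3.10 and 4.30 to 6.22) and troponin I (0.874 to 3.58 and 4.56 to 7.68) and overlapped for troponin C. WT 5 overlapped KO 1 in all 3 pairs, with Tnnt1 at 3.64% (2.002 to 6.03), Tnnc1 at 4.89% (2.26 to 9.08) and Tnni1 at 2.23% (0.612 to 5.62). KO 5, on 29 to 76 counts a pair, had 6.58% (2.17 to 14.7), 11.9% (4.91 to 22.9) and 3.45% (0.0873 to 17.8). Myoz2 was 1.41% (0.171 to 4.99) of the myozenin pair in KO 1, 13.5% (9.65 to 18.1) in KO 4 and 9.50% (6.74 to 12.9) in WT 7. In the myosin-binding protein C pair, Mybpc1 was at 33.2% (28.2 to 38.6) in KO 1, 47.6% (44.3 to 51.0) in KO 4, 33.3% (25.3 to 42.2) in WT 5, 38.5% (35.3 to 41.9) in WT 7 and 48.6% (31.9 to 65.6) in WT 2. The point value of KO 1 was thus below those of KO 4 and WT 7 in all 8 pairs, although some intervals overlapped. Per kb of exon, the scale for comparing pairs, the fast gene of this pair exceeded the slow one 2.51-fold in KO 1, 1.38-fold in KO 4 and 1.998-fold in WT 7. In the other 7 pairs the excess was 52.6- to 144-fold, 11.5- to 37.5-fold and 15.7- to 52.0-fold in these mice. Mybpc1 is also known from fast fibres.

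In the mice with the fewest muscle counts the slow gene held at least as many counts as the fast one in the troponin C and T pairs, on 4 to 9 counts each. Tnnc1 was 7 of 7 counts of its pair in KO 7 (59.0% to 100%), 8 of 9 in WT 6 (51.8% to 99.7%), 4 of 4 in WT 3 (39.8% to 100%) and 4 of 5 in KO 2 (28.4% to 99.5%). Its fast partner Tnnc2 shares 59.0% of its 31-base words with Ube2c. The few Tnnc2 counts thus also rest on how reads were divided, which the intervals do not cover. Tnnt1 was 5 of 5 in KO 7 (47.8% to 100%), 7 of 8 in WT 3 (47.3% to 99.7%), 4 of 6 in WT 6 (22.3% to 95.7%) and 2 of 4 in KO 2 (6.76% to 93.2%). The intervals of Tnnc1 in all 4 mice lay above those of KO 1, KO 4, KO 5, WT 2, WT 5 and WT 7, the highest of which ended at 25.2%, and for Tnnt1 this held in KO 7, WT 3 and WT 6 but not in KO 2, the highest of the others ending at 14.7%. The heavy and regulatory light chain pairs had 1 to 13 counts in these mice, and the slow regulatory light chain Myl2 was at 0 in all of them. The myosin-binding protein C pair went the other way on as few counts, with Mybpc1 at 0 of 2 in KO 2, 1 of 5 in KO 7, 0 of 3 in WT 3 and 0 of 3 in WT 6.

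**Figure D3:**
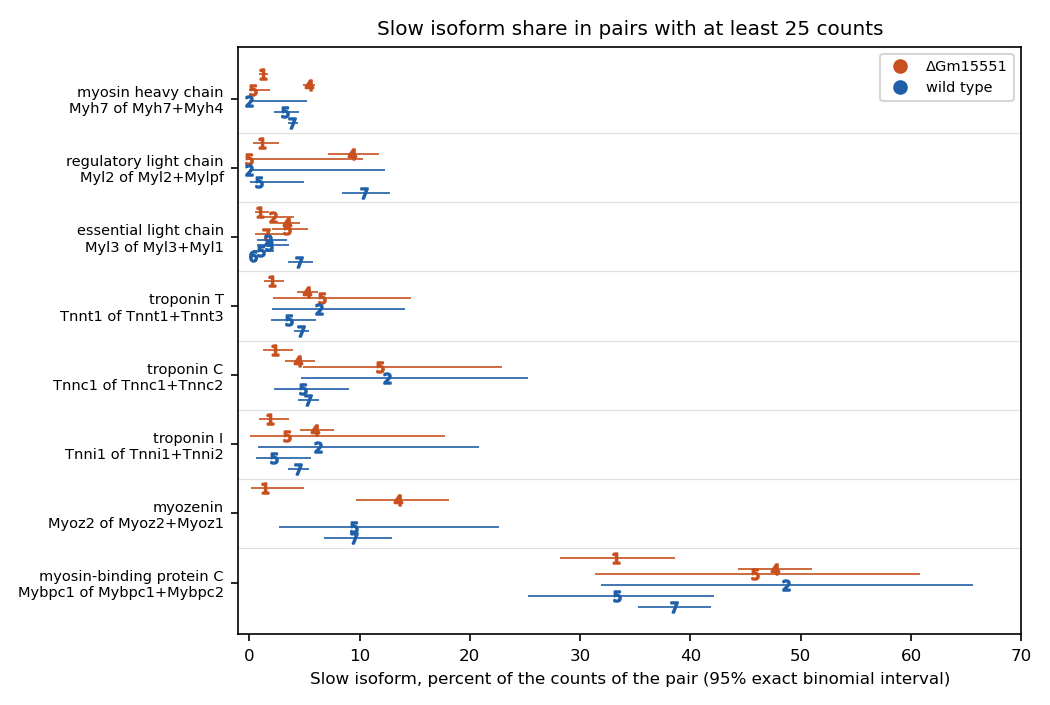
Slow gene as a percent of the counts of each fast and slow pair, for mice with at least 25 counts in the pair, with digits for the replicate, orange for ΔGm15551, blue for wild type and bars for exact 95% binomial intervals. In all 8 pairs KO 1 lies left of KO 4 and WT 7, for example at 33.2% against 47.6% and 38.5% in the myosin-binding protein C pair.

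The 4 heavy chains gave each mouse a fibre type profile. Among the heavy chain counts, Myh4 took 92.2% in KO 1 (3671 counts), 72.9% in KO 4 (9951 counts), 85.4% in KO 5 (349 counts), 72.1% in WT 5 (1380 counts) and 80.5% in WT 7 (8680 counts). WT 2 differed: Myh4 held 43.4% (35.6 to 51.5) of 159 counts and Myh1 51.6% (43.5 to 59.6). In the other 5 of these mice Myh1 held 5.75% to 19.4%. Myh2 reached 10.4% (9.84 to 11.0) in KO 4 against 4.04% (3.64 to 4.48) in WT 7 and 0.926% (0.642 to 1.29) in KO 1. The 4 remaining mice had 3 to 7 heavy chain counts each, too few for a profile.

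**Figure D4:**
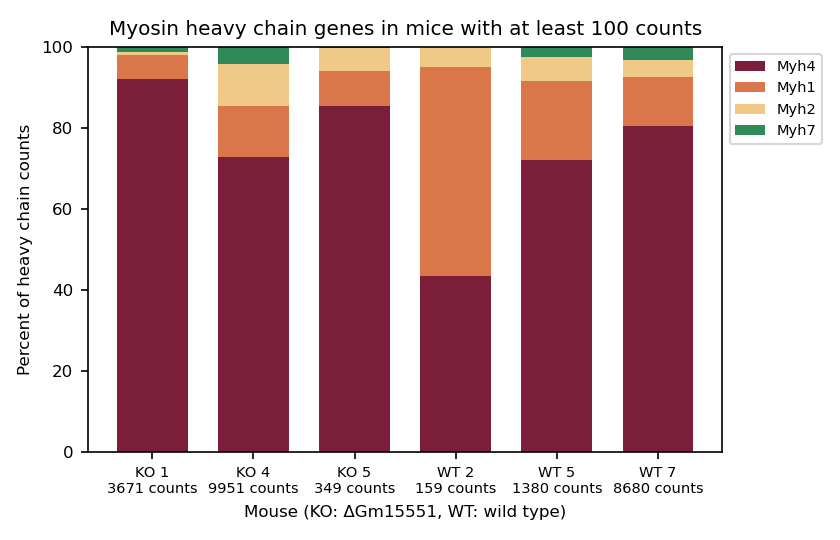
Percent of myosin heavy chain counts on Myh4, Myh1, Myh2 and Myh7 in the 6 mice with at least 100 such counts, with the counts under each bar. Myh4 is the largest part in every bar except WT 2, where Myh1 holds 51.6% and Myh4 43.4%.

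WT 2 also stood apart in a ratio that was looked at after its heavy chains were seen. Tcap, the titin cap, was 4.35% (0.906 to 12.2) of Tcap plus Ttn (the giant spring titin) in WT 2, on 69 counts, and 22.5% to 38.7% in KO 1, KO 4, KO 5, WT 5 and WT 7. Myog, the myogenin gene that switches on muscle differentiation, had 2, 1, 5, 1 and 0 counts in ΔGm15551 and 22, 0, 0, 0 and 3 counts in wild type mice. Myod1, a myogenic determination factor, had 0, 0, 5, 0 and 0 counts in ΔGm15551 and 9, 0, 0, 0 and 0 counts in wild type mice, and Myh3, the embryonic heavy chain, had 0, 0, 10, 0 and 0 counts in ΔGm15551 and 8, 0, 0, 0 and 0 counts in wild type mice. These 3 were picked after their values were seen, and KO 4 was the only other mouse holding Myod1 or Myh3. Related genes were mixed. By CPM, WT 2 was the highest mouse for 5 of the 10 stem cell and myogenic factor genes (Myog, Myod1, Chrna1, Musk and Pax7). Chrna1, a subunit of the acetylcholine receptor, had 9 counts in WT 2 and in KO 4 and 0 to 4 elsewhere. Musk had 4 counts in WT 2 and 5 in KO 1, whose library was deeper. Pax7 had 1 count in WT 2 and 0 in every other mouse. Against this, Myf6, another myogenic factor, had 25 counts in WT 7, 23 in KO 4 and 6 in WT 2, Myf5 had 0 in WT 2, and Myh8, the perinatal heavy chain, had 12 in KO 4, 8 in KO 5 and 2 in WT 2.

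Set against the whole transcriptome, the members were among the most variable genes of this tissue. They were chosen with earlier results of these data known, so this rank is a description and not a test. The SD of log2 CPM over the 10 mice had a median of 2.94 over the 32 members that passed the low-count filter, against 0.27 over all 13732 genes tested and 0.26 over 10 brown adipocyte genes. It was above the 95th percentile of all genes (0.66) for 31 of the 32, the exception being Des at 0.51. By class the median was 3.79 for 12 fast genes and 2.13 for 19 common ones. The single slow gene that passed, Mybpc1, stood at 3.10, but it is also known from fast fibres and cannot stand for the slow class. Members made up 21 of the 50 most variable genes and 28 of the 100 most variable. These counts describe genes that passed the filter, which a gene high in several mice does more easily, and 8 members (Myoz1, Myh7, Myl2, Myl3, Tnnt1, Tnnc1, Tnni1, Myoz2) did not pass.

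The genotype comparison asked whether loss of Gm15551 moved these genes, and none differed beyond the spread between mice. In edgeR's quasi-likelihood test with Benjamini-Hochberg adjustment over all genes, 0 of the 32 tested members were called, where the background was 0% of 13732 genes. At an unadjusted p under 0.05 the count was 0 members, against 1.59% of all genes (0.634% lower in ΔGm15551). The mice of the genotypes did not overlap for 0 members, against 0.364% of all genes. DESeq2 called 0 members and 0% of the 13716 genes to which it gave an adjusted p. Of the 32, 12 had a log2 fold change (log2FC, ΔGm15551 over wild type) above 0 and 20 below, with a median of -0.21 beside -0.00092 for all genes.

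The standard errors were wide. Myh4 had a log2FC of 0.03 ± 2.23 (SE), Atp2a1 of 0.05 ± 2.11 and Tnnt3 of -0.70 ± 2.02. Mybpc1, the only slow gene tested and one also known from fast fibres, had 0.15 ± 1.71. Among the common genes Acta1 had -0.27 ± 2.03, Ckm -0.61 ± 2.08 and Des -0.21 ± 0.30, and the adjusted p was 0.9997 for all of them (edgeR). Only Des had an SE well under 1 among these. For genes such as Myh4, with an SE above 2, a several-fold difference was not detectable. The direction turned with single mice: without WT 7 the median over the 32 members was 2.34 and 32 of 32 were above 0, whereas without KO 4 it was -1.50 and 1 of 32 was above 0. Apart from the replicate number, the labels give each mouse a number of its own, which was 1028 to 1030 for WT 5, WT 6 and WT 7 and 145 to 201 for all other mice. No ΔGm15551 mouse was in the higher series, so that series and the wild type genotype cannot be told apart in full. Without these 3 mice, 37 members were tested, 0 were called, and the median log2FC was 3.16 with 37 of 37 above 0.

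**Figure D5:**
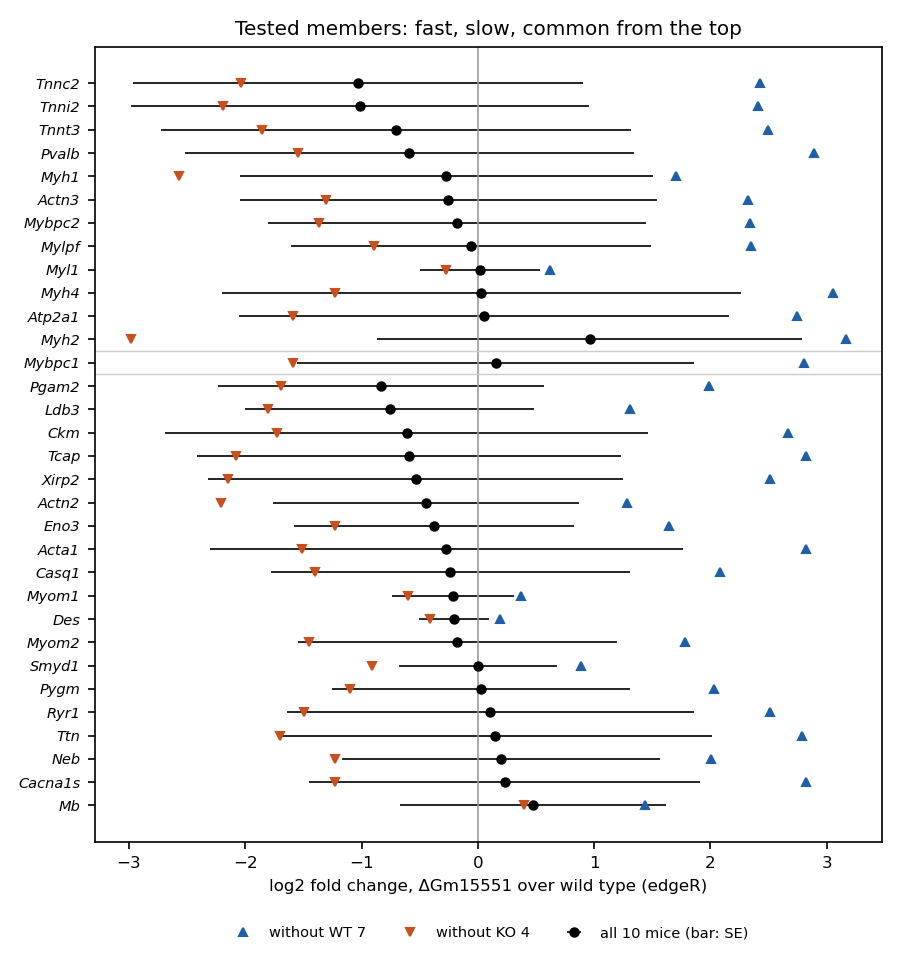
log2FC (ΔGm15551 over wild type, edgeR) of the 32 tested members with all 10 mice (black, bar for 1 SE), without WT 7 (blue) and without KO 4 (orange), in the order fast, slow, common. With all mice the values run from -1.03 for Tnnc2 to 0.96 for Myh2, and the blue and orange marks lie on opposite sides of 0 for every gene but Mb.

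Muscle genes outside the 40 were mostly highest in the same mice. In a list of 40 further muscle genes, 22 passed the filter, 0 were called, 0 had an unadjusted p under 0.05, 4 had a log2FC above 0 and 18 below, and the median was -0.15. WT 7 was the highest mouse for 30 of the 40 and KO 4 for 6. Of its 4 genes with the highest mean CPM, Fhl1, a LIM-domain gene also expressed outside muscle, ran from 178 to 307 CPM and was highest in WT 5. Tpm1, Tpm2 and Tpm3, the tropomyosins, are also made by non-muscle cells, and Tpm2 had the widest range of these, from 14.4 to 290 CPM. The list of 10 stem cell and myogenic factor genes summed to 20.6 to 36.9 CPM in ΔGm15551 and 22.8 to 47.3 CPM in wild type mice, with 0 of 2 tested genes called. Of the other lists, 0 of 5 smooth muscle genes, 0 of 1 tested heart gene and 0 of 10 brown adipocyte genes were called, and the 4 tendon genes, none of which passed the filter, summed to at most 1.65 CPM.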

How the data were processed

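RNA of iBAT from 5 ΔGm15551 and 5 wild type mice was sequenced as paired-end poly A libraries. As the labels and the published methods state, cutadapt was used by the authors to filter the reads and salmon to quantify transcripts of GENCODE M22 on GRCm38, or M22 joined with RNAcentral. Tool versions and the use of strand are not given in the sources used here. The values deposited by the authors are estimated counts (expected counts) per gene, rounded to whole numbers by an unstated step and not scaled to depth. Salmon divides reads between similar genes by estimate.

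Members and lists were chosen with earlier results of these data known. CPM used library totals. Levels per kb were divided by the union of exons in GENCODE M21, where 99.5% of gene IDs were found. The fast to slow ratio had a pseudocount of 0.5 counts per gene. In R 4.3.3, edgeR 4.0.16 tested genotype on 13732 genes (filterByExpr, minimum count 10 and total 15; TMM scaling; glmQLFit with robust estimation; glmQLFTest), adjusted by Benjamini-Hochberg at 0.05. The common dispersion was 0.0523. For SDs, log2 CPM was taken with a prior count of 2. The fit was tested on simulated data. Whether mice came from separate litters is not stated, so p-values measure the spread between these mice. No 2 libraries of a group agreed within sampling noise (smallest chi-square per degree of freedom 12.7). The floor for a gene at 0 was set at 3 counts per library.

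Values in every mouse are given for the members of the 8 isoform pairs, for Acta1, Ckm, Atp2a1, Pvalb, Myh1 and Myh2, and for common members with at least 10 counts in every mouse. Fold changes are given for the 3 tested members of each class with the highest mean count and for any with an unadjusted p under 0.05. Promoters came from RefSeq, with windows for 33 of the 40 members. DESeq2 1.42.0, limma 3.58.1 with sample quality weights, other scalings and filters, and leaving out mice were alternatives.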

Additional observations from a re-analysis of the deposited data

Results flagged for a closer look

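Single mice stood far from the other 4 of their genotype in 43 of the 68 groups of 5 values looked at. A rate of 1 in 20 would give about 3.4, but that rate assumes independent values without strong skew. Most values here are skewed CPM of genes chosen with earlier results known and read in the same libraries. The 43 therefore cannot be set against it and is a description. The measure was the gap to the nearest mouse divided by the range of the 5, set against a critical value of 0.710. WT 7 stood apart on the high side for 30 members and for the share of counts on all members, where the ratio was 0.907. The ratios of the fast genes in WT 7 were Myh1 0.827, Myh2 0.839, Myh4 0.903, Mylpf 0.902, Myl1 0.912, Tnnt3 0.927, Tnnc2 0.942, Tnni2 0.937, Atp2a1 0.879, Pvalb 0.939, Myoz1 0.924 and Mybpc2 0.891. Those of the slow genes were Myh7 0.921, Myl2 0.992, Myl3 0.914, Tnnt1 0.957, Tnnc1 0.974, Tnni1 0.969, Myoz2 0.924 and Mybpc1 0.910. Those of the common genes were Acta1 0.927, Ckm 0.926, Actn2 0.858, Eno3 0.922, Pygm 0.892, Ldb3 0.906, Smyd1 0.864, Myom1 0.908, Neb 0.868 and Des 0.818. Every slow gene thus had WT 7 apart from the other wild type mice.

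KO 4 stood apart on the high side of the ΔGm15551 mice for 11 members, with ratios of Myh1 0.833, Myh2 0.968, Myh7 0.897, Myl2 0.917, Tnnt1 0.810, Tnnc1 0.762, Tnni1 0.843, Myoz2 0.946, Mybpc1 0.739, Actn2 0.832 and Smyd1 0.841. They include 7 of the 8 slow genes, Myl3 being the one left out, but of the fast genes only Myh1 and Myh2 among those looked at. KO 1 and KO 4 were both high for the remaining fast genes. The one value that involved neither mouse was Myog in WT 2, with a ratio of 0.850 on 22 counts. These values are not independent, since the genes were read in the same libraries. The cause was not tested.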

How the results depend on the processing

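No member was called under any of the 20 alternatives to the genotype test (other scaling, filters, DESeq2, limma-voom, fewer mice), nor was any gene, but the direction of most members turned with the mice used. The log2FC (ΔGm15551 over wild type) ran over the 10 fits that each left out 1 mouse from -1.23 to 3.05 for Myh4, -1.59 to 2.74 for Atp2a1, -1.86 to 2.49 for Tnnt3, -1.59 to 2.81 for Mybpc1, -1.51 to 2.83 for Acta1, -0.41 to 0.19 for Des and -1.73 to 2.67 for Ckm. Without WT 5, WT 6 and WT 7, the mice numbered 1028 to 1030 in the labels, it was 3.83 for Tnnt3, 3.71 for Acta1, 0.22 for Des and 4.52 for Ckm. With limma-voom and sample quality weights it was 0.062, 1.80, 0.10 and 0.23, and 31 of 32 members were above 0. Numbers 2, 5 and 7 occur in both genotypes, but same-numbered mice did not deviate together (correlations -0.07, 0.05 and -0.39). So few correlations cannot decide whether these mice also shared a litter or a batch, which is not stated. The replicate block in these 6 mice gave -5.51 for Myh4, -5.07 for Atp2a1 and -3.87 for Mybpc1, and the same 6 mice without the block gave -5.12, -5.01 and -4.43, with 0 members called both times. At an unadjusted p under 0.05 were 4 and 9 of 32 members, against 397 and 552 of all 13796 genes. The cause was not tested beyond the choice of mice.

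The difference between genotypes in the log2 fast to slow ratio stayed between -0.37 and 0.38, and that in the share of counts on members between -0.0684 and 0.0752 percentage points. The median SD of log2 CPM stayed between 2.65 and 3.49. Depth limits the slow genes most: 7 of the 8 were too scarce to test, and in KO 2, KO 7, WT 3 and WT 6 the pairs other than the essential light chain held at most 13 counts each.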
